A study of Homo sapiens with 9 samples.

Results

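The EGR, NR4A, IER and GADD45 genes examined here are EGR1, EGR2, EGR3, NR4A1, NR4A3, IER2, IER3, IER5, GADD45A and GADD45B, 10 of the 25370 gene symbols in the count table. They were chosen by name, with earlier results of these data known. RNA of OCI-Ly1, an established human cell line of diffuse large B-cell lymphoma, was sequenced after ribosomal RNA depletion. There were 3 libraries from control cells given DMSO, the solvent, 3 from cells given JIB-04 at 150 nM and 3 from cells given it at 500 nM, each for 48 h in serum-containing medium. JIB-04 inhibits histone demethylases of the Jumonji type. All groups are the same cell line, and nothing in the labels tells whether replicate libraries are separate cultures. The p-values therefore speak of the spread among replicate libraries, and that spread may be technical.

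Immediate-early genes are transcribed within minutes of a stimulus, without new protein synthesis, and their mRNAs are usually short-lived. Serum response factor with its ELK partners, CREB and NF-kB are the best known activators of this class, and B-cell receptor signalling is one of its stimuli. EGR1, EGR2 and EGR3 encode zinc-finger transcription factors, NR4A1 and NR4A3 encode orphan nuclear receptors, and IER2, IER3 and IER5 encode small proteins without known enzymatic activity that are named for their early response rather than for a single common ancestor. GADD45A and GADD45B encode small stress proteins that bind the kinase MAP3K4 and cell-cycle proteins, and GADD45A is a classical target of p53.

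The sequence just before the start of transcription is shown for 5 of the genes, because these genes differ in both their response and their motifs. The windows hold the 250 bases before the start in RefSeq (GRCh38.p14), written 5′ to 3′ on the strand of the gene. Capitals mark every match to the motifs named in the next paragraph other than the CCAAT box.
EGR1, chr5:138465229-138465478, plus strand: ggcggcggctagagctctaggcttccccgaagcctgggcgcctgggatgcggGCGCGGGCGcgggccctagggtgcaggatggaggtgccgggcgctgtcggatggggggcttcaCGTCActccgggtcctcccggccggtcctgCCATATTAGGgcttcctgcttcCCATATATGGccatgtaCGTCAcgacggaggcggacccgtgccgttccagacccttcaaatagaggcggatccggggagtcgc
EGR2, chr10:62816367-62816616, minus strand: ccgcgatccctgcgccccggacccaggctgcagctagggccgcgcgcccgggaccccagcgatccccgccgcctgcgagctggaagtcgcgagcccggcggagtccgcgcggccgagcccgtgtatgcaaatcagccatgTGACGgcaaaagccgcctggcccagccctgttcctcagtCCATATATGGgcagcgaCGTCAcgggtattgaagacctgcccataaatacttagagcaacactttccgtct
NR4A3, chr9:99821635-99821884, plus strand: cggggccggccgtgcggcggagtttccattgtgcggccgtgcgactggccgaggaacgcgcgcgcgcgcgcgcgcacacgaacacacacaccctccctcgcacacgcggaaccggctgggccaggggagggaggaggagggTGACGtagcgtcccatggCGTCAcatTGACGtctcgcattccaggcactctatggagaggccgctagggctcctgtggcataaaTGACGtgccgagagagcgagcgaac
IER5, chr1:181088450-181088699, plus strand: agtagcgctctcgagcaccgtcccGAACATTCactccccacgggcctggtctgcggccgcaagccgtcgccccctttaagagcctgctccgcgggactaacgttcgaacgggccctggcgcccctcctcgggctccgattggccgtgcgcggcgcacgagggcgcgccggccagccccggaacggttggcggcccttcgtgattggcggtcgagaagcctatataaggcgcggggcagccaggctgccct
GADD45B, chr19:2475877-2476126, plus strand: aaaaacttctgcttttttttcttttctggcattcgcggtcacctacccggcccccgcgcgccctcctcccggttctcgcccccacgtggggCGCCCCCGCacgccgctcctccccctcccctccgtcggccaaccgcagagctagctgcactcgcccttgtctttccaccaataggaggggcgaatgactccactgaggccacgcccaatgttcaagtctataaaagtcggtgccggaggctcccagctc

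The motifs were searched on both strands. They were the CArG box bound by serum response factor, the cAMP response half-site TGACG, the AP-1 site TGANTCA, the heat-shock element pairs GAANNTTC and TTCNNGAA, the EGR site GCGNGGGCG, the NR4A monomer site AAAGGTCA, the CEBP-ATF response element TGATGNAA, the NF-kB site and the CCAAT box CCAAT. The search covered RefSeq windows of 7 of the 10 genes, 10 windows in all, since EGR2 has 3 starts and NR4A1 has 2. No window of EGR3, IER3 or GADD45A was searched, so their motifs are not known here. EGR1 held 2 CArG boxes, CCATATTAGG beginning 105 bases and CCATATATGG beginning 83 bases before the start. The second of these letters also stood in the EGR2 window shown, beginning 71 bases before the start. The windows of the other EGR2 starts, and both windows of NR4A1, held no match to any of the motifs. A CArG box was found in 1.16% of all 34943 windows of that length, and in none of the windows of the other 5 genes searched. NR4A3 held 4 cAMP response half-sites, against 2 in EGR1 and 2 in the EGR2 window, and such a half-site was found in 21.2% of all windows. IER5 held 1 heat-shock element pair, GAACATTC (5.8% of all windows), and GADD45B held 1 EGR site, CGCCCCCGC (8.39% of all windows). The EGR1 window also held 1 EGR site, GCGCGGGCG. IER2, not printed, held 1 cAMP response half-site. IER5 and GADD45B each held 2 CCAAT boxes, a motif of 32% of all windows. No match to the AP-1, NR4A, CEBP-ATF or NF-kB sites, or to TTCNNGAA, was found in these 10 windows. A match is a description of letters and not a measured binding site.

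The libraries held 28476845 to 57198613 counts. Levels are in CPM, the usual counts per megaread, with library sizes scaled by TMM, a method that equalizes the bulk of the genes. In all, 15089 genes passed the filter on low counts. Of the 10 genes 9 passed, and EGR3 did not. EGR2 and NR4A3 passed through the JIB-04 libraries, since only 2 and 1 of the 3 DMSO libraries, respectively, reached the minimum. DMSO replicate 2 was the shallowest library and stood apart on the second principal component (9.3% of the variance), at -42.4, with the other libraries between -5.4 and 14.3. All 8 B-cell markers examined were detected, with a summed level of 2110 to 2170 CPM in DMSO, 2100 to 2200 CPM at 150 nM and 1740 to 1800 CPM at 500 nM. The summed level of 4 T-cell markers was 17.9 to 20.9 CPM in DMSO, 13.4 to 16 CPM at 150 nM and 7.73 to 8.37 CPM at 500 nM, nearly all of it CD3D and CD3G. CD3E averaged 0.427, 0.411 and 0.49 CPM and CD8A 0.273, 0.188 and 0.631 CPM in the same order. The sums of 4 monocyte, 4 fibroblast and 4 epithelial markers stayed at or under 6.31 CPM in every library, CDH1 had no counts in any, and FCGR3A had none in DMSO or at 150 nM. The part of these marker shifts in the results was not tested.

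The genes differed widely in level. Per kilobase of their longest transcript, the order in DMSO was GADD45A (mean 34.6 CPM per kilobase), IER5 (4.19), IER2 (3.52), GADD45B (1.78), IER3 (1.03), NR4A1 (0.711), EGR1 (0.374), EGR2 (0.153), NR4A3 (0.0274) and EGR3 (0.00713). At 500 nM the order of levels was the same except that GADD45B (9.21 CPM per kilobase) stood above IER2 (8.15). In bulk RNA, fewer cells expressing a gene and less RNA per cell cannot be told apart, which holds for every level given here.

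**Figure D1:**
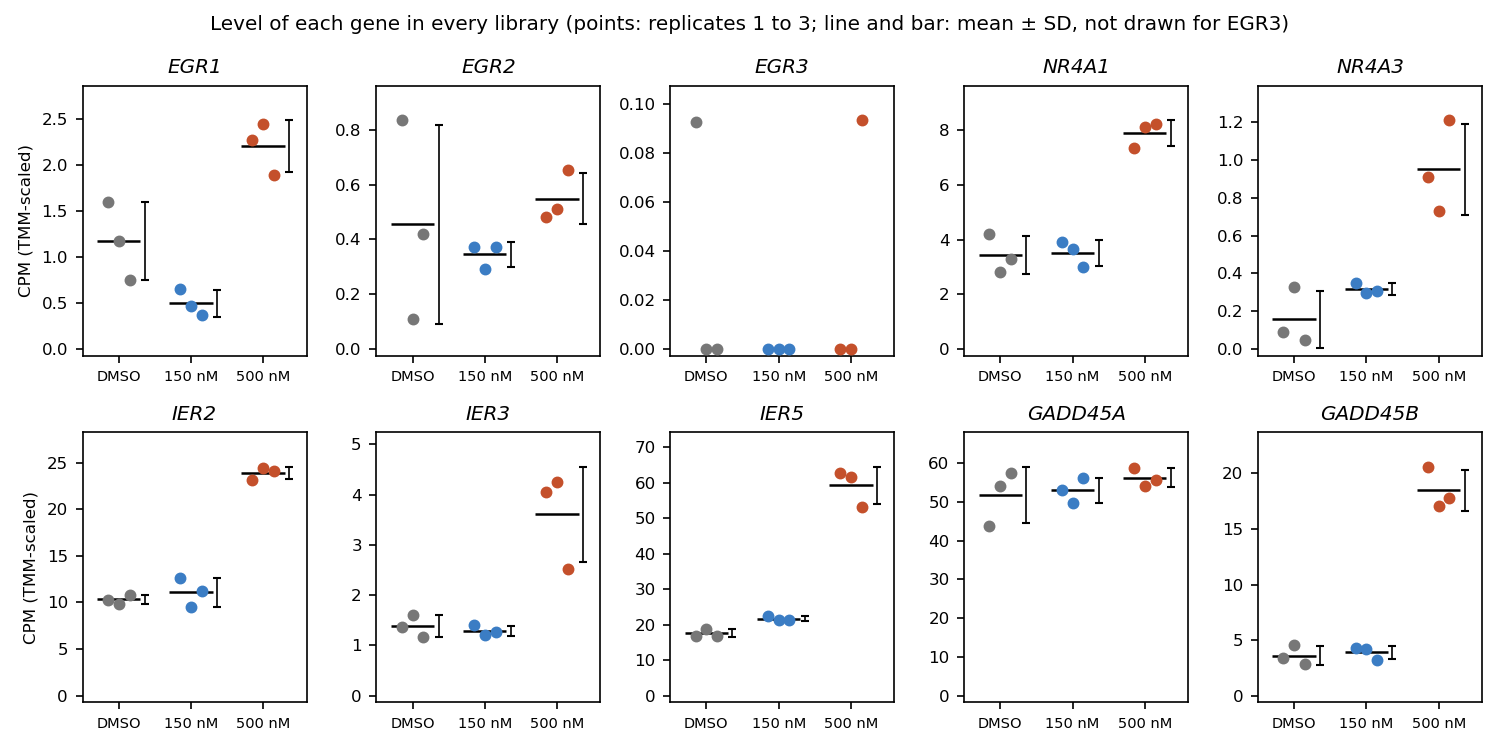
Level of each of the 10 genes in every library, in CPM scaled by TMM, with DMSO, 150 nM and 500 nM JIB-04 from left to right. Points are replicates 1 to 3, lines and bars are the mean and SD (not drawn for EGR3), and each panel has its own axis. The 500 nM libraries sit above all others for NR4A1, NR4A3, IER2, IER3, IER5, GADD45B and EGR1, while GADD45A overlaps in all 3 conditions.

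At 500 nM JIB-04, 7 of the 9 tested genes rose above DMSO: EGR1, NR4A1, NR4A3, IER2, IER3, IER5 and GADD45B. Of these, NR4A3 had passed the filter on low counts only through the JIB-04 libraries. EGR2 and GADD45A did not pass the test, and none of the 9 fell. Of all tested genes 52% were called in this comparison, 26.3% as higher and 25.6% as lower, at an adjusted p under 0.05 in edgeR's quasi-likelihood test with Benjamini-Hochberg adjustment over all 15089 genes. The median log2 fold change of the 9 genes was 1.21, beside 0.01 over all tested genes. In the same 7 genes every 500 nM library exceeded every DMSO library, which was so for 30.2% of all tested genes, while the opposite was so for none of the 9 and for 29% of all. At 150 nM edgeR called none of the 9 against DMSO, where 1.27% of all tested genes were, 0.954% as higher and 0.318% as lower. There 2 of the 9 had an unadjusted p under 0.05 (EGR1 and IER5), as had 1572 of the 15089 tested genes, and DESeq2 called both while limma-voom called 0. Between the doses, the 7 genes that rose against DMSO were also higher at 500 nM than at 150 nM, and 46.5% of all tested genes were called there, 23.7% as higher and 22.8% as lower. The libraries of the doses did not overlap for 8 of the 9, EGR2 being added, all higher at 500 nM, beside 29% of all tested genes higher and 26% lower without overlap. The comparisons share libraries, so these counts are not independent of each other. Since the genes were chosen with earlier results of these data known, their excess over all tested genes is a description only.

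**Figure D2:**
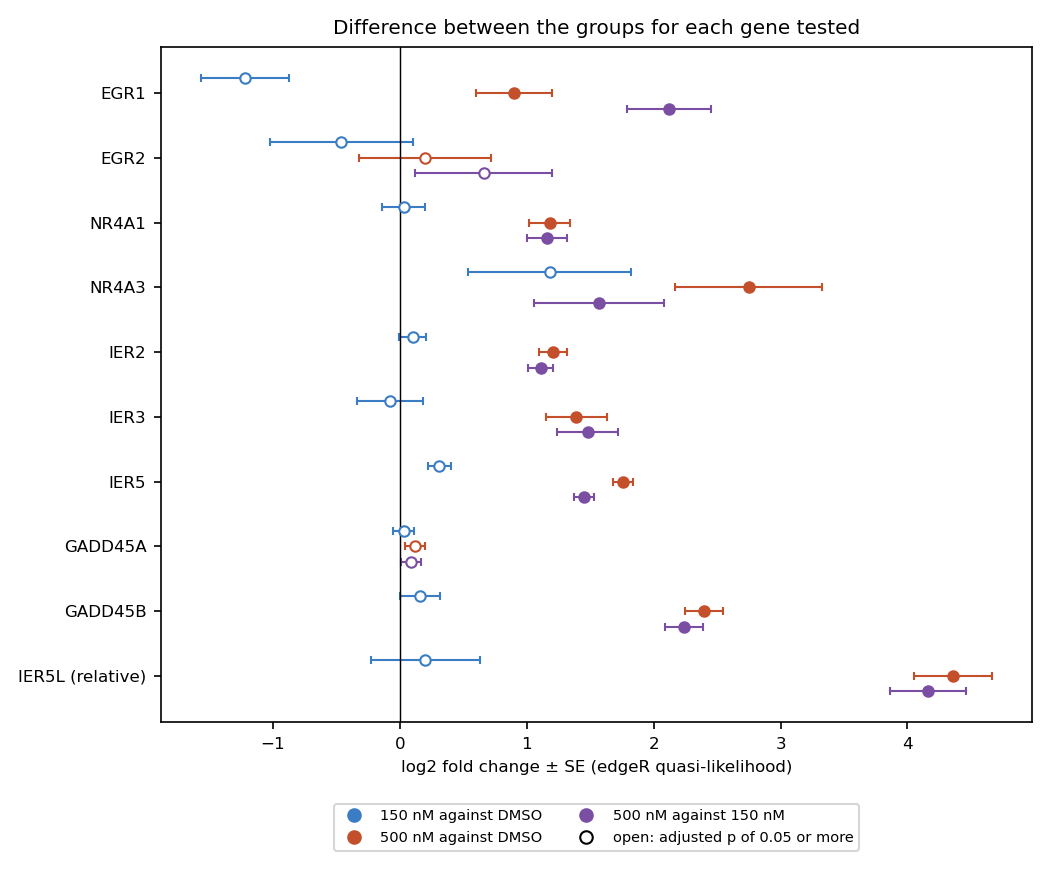
Log2 fold change with its SE for the 9 tested genes and IER5L, a relative, in the 3 comparisons. Filled points have an adjusted p under 0.05 and open points do not. EGR1 has the lowest estimate at 150 nM (-1.22, not called) and lies at 0.90 at 500 nM, and IER5L has the largest estimate (4.36).

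Among the transcription factors, EGR1, the best studied early-response zinc-finger factor, had its lowest level at the intermediate dose. Its level was 1.6, 1.17 and 0.749 CPM in DMSO replicates 1, 2 and 3, then 0.655, 0.466 and 0.371 CPM at 150 nM, and 2.27, 2.44 and 1.89 CPM at 500 nM. The 3 conditions did not overlap, although the lowest DMSO library lay close to the highest 150 nM library. At 500 nM EGR1 rose above DMSO by 0.90 ± 0.30 on the log2 scale (SE, n = 3 per group, adjusted p = 0.0134), a call lost without DMSO replicate 3 (0.65, adjusted p = 0.0938). Against 150 nM, the 500 nM libraries were higher by 2.12 ± 0.33 (adjusted p = 5.72e-06), the larger of the 2 contrasts for this gene. At 150 nM against DMSO the estimate was -1.22 ± 0.35, with an adjusted p of 0.0883 that did not pass the threshold. That estimate stood at percentile 0.424 of all tested genes, and 150 nM libraries that all lay below the DMSO libraries were found for 7.32% of all tested genes. It was called lower by DESeq2 (adjusted p = 0.0492), without a filter (0.0371), without DMSO replicate 3 (0.0207) and without 150 nM replicate 1 (0.0283), and over its 19 alternatives the adjusted p ran from 0.0207 to 0.457. The total behind these values was 59 counts at 150 nM and 133 in DMSO.

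EGR2, a relative of EGR1 that controls myelination and lymphocyte activation, was measured from few reads. It had 36, 3 and 18 counts in the DMSO libraries, 16, 12 and 12 at 150 nM and 29, 23 and 35 at 500 nM, which is 0.835, 0.11 and 0.421 CPM, then 0.374, 0.294 and 0.371 CPM, then 0.481, 0.51 and 0.654 CPM. DMSO replicates 1 and 2 held the highest and the lowest level of all 9 libraries, so DMSO enclosed both doses. The difference at 500 nM against DMSO was 0.20 ± 0.52 (adjusted p = 0.762), with a 95% interval of -0.86 to 1.27 that leaves room for the change seen in EGR1. The libraries at 500 nM lay above those at 150 nM without overlap, but the difference of 0.66 ± 0.54 was not called (adjusted p = 0.327), and 29% of all tested genes were higher without overlap in that comparison. EGR3, the third zinc-finger factor, had 4 counts in DMSO replicate 1, 5 in 500 nM replicate 3 and 0 in the other 7 libraries. A count of 0 allows a level of up to 0.0498 to 0.11 CPM in those 7 libraries, for counting error only, so no difference was detectable at this depth.

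The orphan nuclear receptor genes both rose at the higher dose. NR4A1 had 4.2, 2.82 and 3.3 CPM in DMSO, 3.91, 3.65 and 3 CPM at 150 nM, and 7.37, 8.12 and 8.22 CPM at 500 nM. The 500 nM libraries were all above the rest, and DMSO and 150 nM overlapped. The rise at 500 nM against DMSO was 1.18 ± 0.16 (adjusted p = 6.46e-07), a fold of 2.27. At 150 nM against DMSO the difference was 0.03 ± 0.17, with a 95% interval of -0.33 to 0.38. NR4A3 was far lower, with 4, 9 and 2 counts in DMSO, 15, 12 and 10 at 150 nM and 55, 33 and 65 at 500 nM, that is 0.0927, 0.33 and 0.0468 CPM, then 0.351, 0.294 and 0.309 CPM, then 0.912, 0.732 and 1.21 CPM. The 500 nM libraries again stood above all others, and DMSO replicate 2 fell within the range at 150 nM. NR4A3 had passed the filter on low counts only through the JIB-04 libraries. It rose by 2.75 ± 0.58 at 500 nM against DMSO (adjusted p = 0.000203), with a wide 95% interval of 1.59 to 3.96. That was the largest estimate among the 9 genes. Without DMSO replicate 2 the estimate was 3.72. At 150 nM the estimate of 1.18 ± 0.64 was not called (adjusted p = 0.541), and it was 2.15 without DMSO replicate 2 and 0.70 without DMSO replicate 3. The rise between the doses, 1.57 ± 0.51 (adjusted p = 0.0115), was not called without 500 nM replicate 3 (1.36, adjusted p = 0.0719).

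Of the IER genes, IER5 and IER2 were measured most precisely. IER5 encodes a nuclear protein that binds heat-shock factor HSF1 and the phosphatase PP2A. Its level was 16.9, 18.9 and 16.9 CPM in DMSO, 22.5, 21.3 and 21.4 CPM at 150 nM, and 62.9, 61.7 and 53.3 CPM at 500 nM. None of the 3 conditions overlapped, and the order followed the dose. IER5 rose at 500 nM by 1.76 ± 0.08 against DMSO (adjusted p = 2.96e-16) and by 1.45 ± 0.08 against 150 nM (adjusted p = 2.8e-14). At 150 nM the estimate of 0.31 ± 0.09 missed the threshold (adjusted p = 0.0721). It was called higher under 5 of its 19 alternatives, among them DESeq2 (adjusted p = 0.0222), total-count scaling (0.046), no filter (0.0204) and removal of trends on GC content (0.00825), and over all 19 the adjusted p ran from 0.00825 to 0.226. The 150 nM libraries lay above DMSO without overlap for 6.41% of all tested genes.

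IER2, a nuclear early-response protein, had 10.3, 9.86 and 10.8 CPM in DMSO, 12.6, 9.51 and 11.2 CPM at 150 nM, and 23.1, 24.4 and 24.1 CPM at 500 nM. The 500 nM libraries were close together and clear of the rest, and the 150 nM libraries enclosed the DMSO range. IER2 rose by 1.21 ± 0.11 at 500 nM against DMSO (adjusted p = 1.52e-10), while the difference at 150 nM was 0.10 ± 0.11 with a 95% interval of -0.12 to 0.32. IER3, a stress-induced regulator of apoptosis and target of NF-kB, had 1.37, 1.61 and 1.17 CPM in DMSO, 1.4, 1.2 and 1.27 CPM at 150 nM, and 4.06, 4.24 and 2.52 CPM at 500 nM. Replicate 3 was the lowest of the 500 nM libraries, and it still exceeded every other library. The rise at 500 nM against DMSO was 1.39 ± 0.24 (adjusted p = 1.92e-05), and the 150 nM difference was -0.08 ± 0.26 (adjusted p = 0.949). Genes on the opposite strand overlap IER2, IER3, NR4A1 and EGR3 in GENCODE 29. No source here states whether counting used strand, so the reads of such a gene and its partner cannot be told apart.

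The GADD45 genes differed from each other. GADD45B, which is induced by NF-kB and TGF-beta signalling, had 3.36, 4.51 and 2.86 CPM in DMSO, 4.31, 4.19 and 3.22 CPM at 150 nM, and 20.6, 17.1 and 17.8 CPM at 500 nM. The 500 nM libraries were far above the others, and the 150 nM libraries lay within the DMSO range. GADD45B rose by 2.40 ± 0.15 at 500 nM against DMSO (adjusted p = 1.36e-13), a fold of 5.26, and the 150 nM difference was 0.16 ± 0.16 (adjusted p = 0.805). GADD45A, the DNA-damage-inducible member, had 43.7, 54.2 and 57.6 CPM in DMSO, 53, 49.7 and 56.3 CPM at 150 nM, and 58.9, 54.2 and 55.6 CPM at 500 nM. All 3 conditions overlapped, and DMSO replicate 1 was the lowest library. GADD45A differed by 0.12 ± 0.08 at 500 nM against DMSO (adjusted p = 0.226), with a 95% interval of -0.05 to 0.29. The corresponding interval of GADD45B was 2.09 to 2.70, so the intervals of the pair did not overlap. GADD45A was called higher at 500 nM with total-count scaling (0.26, adjusted p = 0.00807) and without DMSO replicate 3 (0.20, adjusted p = 0.0465). The median log2 fold change of all genes was 0.151 with total-count scaling and 0.012 with TMM.

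Single libraries did not order the genes alike. Within 500 nM, replicate 3 held the lowest level of EGR1, IER3 and IER5 and the highest level of EGR2, NR4A1 and NR4A3, and replicate 1 held the highest level of IER5, GADD45A and GADD45B. Within DMSO, replicate 1 held the highest level of EGR1, EGR2, EGR3 and NR4A1, and replicate 2 held that of NR4A3, IER3, IER5 and GADD45B.

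Relatives of these genes that were not among the 10 were read in the same way. IER5L, a paralog of IER5, was scarce without JIB-04. It had 0.162, 0.22 and 0.375 CPM in DMSO, 0.328, 0.245 and 0.309 CPM at 150 nM, and 6.87, 4.37 and 4.63 CPM at 500 nM. The 500 nM libraries were clear of all others, and 150 nM lay inside the DMSO range. The log2 fold change at 500 nM was 4.36 ± 0.31 (adjusted p = 2e-12), larger than that of any of the 9 tested genes. Like NR4A3, IER5L passed the filter through the JIB-04 libraries, since 1 DMSO library reached the minimum. The EGR co-repressor gene NAB1 rose slightly (0.24 ± 0.07, adjusted p = 0.00475), and so did IER3IP1, named for an interaction of its protein with IER3 (0.26 ± 0.09, adjusted p = 0.0205, and 0.118 without DMSO replicate 1 or 0.111 without 500 nM replicate 1). The other tested relatives, NAB2 (0.07 ± 0.18) and GADD45GIP1 (-0.14 ± 0.07), were not called at 500 nM. None of the 5 tested relatives was called at 150 nM in edgeR, DESeq2 or limma-voom, although the unadjusted p of 1 was under 0.05. EGR4, NR4A2, WT1 and GADD45G were too low to test, and the last 2 had no counts in any library.

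Other immediate-early genes moved upward at 500 nM more often than downward. Of 43 listed genes 38 were tested, and at 500 nM 25 rose and 5 fell against DMSO, beside 26.3% higher and 25.6% lower over all tested genes. Their median log2 fold change was 1.08, also with KLF2 at its lower bound. PPP1R15A, which directs dephosphorylation of eIF2-alpha, averaged 94.6 CPM at 500 nM and 10.6 CPM in DMSO (3.16 ± 0.08, adjusted p = 2.7e-22). ATF3, a stress-induced bZIP factor, averaged 30 CPM at 500 nM and 0.459 CPM in DMSO (5.95 ± 0.19, adjusted p = 4.71e-20). PLK2, a polo-like kinase induced by serum and p53, rose by 2.02 ± 0.09, and BTG2, an antiproliferative gene, fell (-0.49 ± 0.05, adjusted p = 6.78e-09). KLF2 had 0 counts in the DMSO libraries and 76 over the 500 nM libraries, at least 18-fold higher against a floor of 3 counts over the DMSO group. At 150 nM 4 of the 38 rose and none fell against DMSO: ATF3 (2.51 ± 0.23), PLK2 (0.85 ± 0.09), PPP1R15A (0.58 ± 0.08) and CD69 (0.56 ± 0.12), the last named after its values were seen. Over all tested genes, 0.954% were called higher and 0.318% lower at that dose. The difference between this list and the EGR, NR4A, IER and GADD45 genes was not tested.

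**Figure D3:**
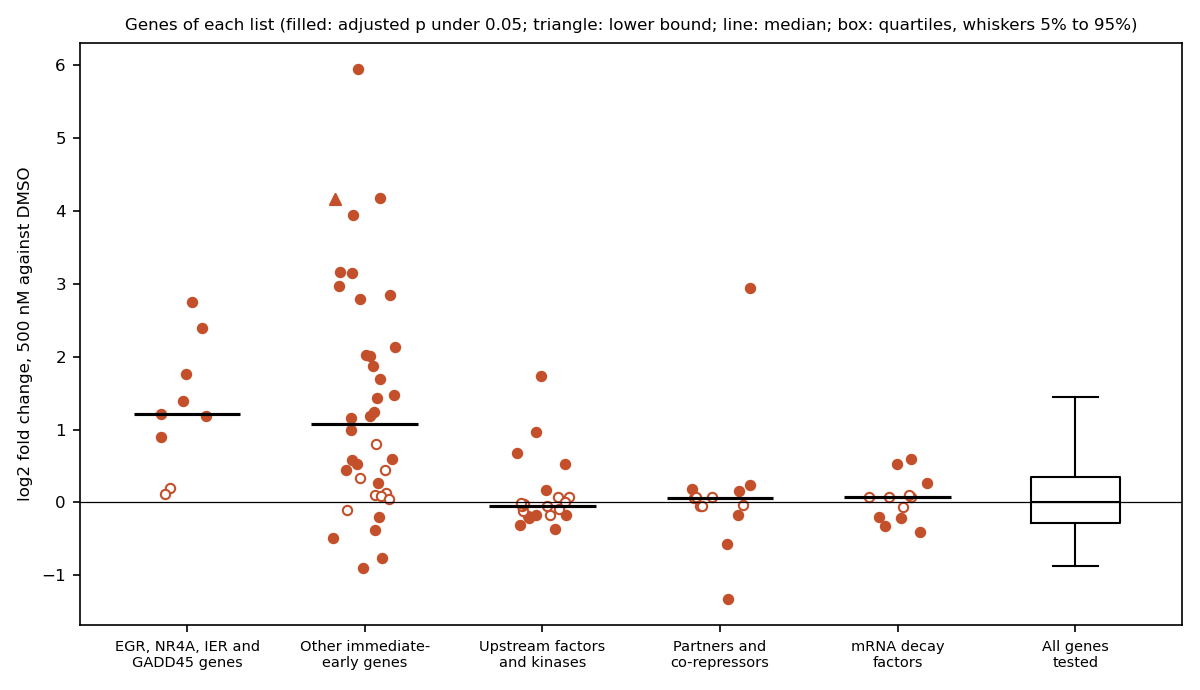
Log2 fold change at 500 nM against DMSO for the genes of each list, with the tested genes of the whole table at the right. Filled points have an adjusted p under 0.05, the triangle is the lower bound of KLF2, lines are medians, and the box shows quartiles with whiskers from 5% to 95%. The medians of the early-response lists lie at 1.21 and 1.08, and those of the other 3 lists drawn between -0.05 and 0.08.

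Of 21 genes for transcription factors and kinases upstream of immediate-early genes, 5 rose and 6 fell at 500 nM against DMSO, with a median of -0.05. Their share called was near that of all tested genes, of which 26.3% were higher and 25.6% lower. SRF, the factor that binds CArG boxes, fell (-0.37 ± 0.07, adjusted p = 4.91e-05), as did its partner gene ELK4 (-0.21 ± 0.06, adjusted p = 0.00625). ELK4 was not called with total-count scaling (-0.07, adjusted p = 0.367) or without 500 nM replicate 2 (-0.16, adjusted p = 0.0596). RPS6KA5, a kinase of CREB and histone H3, rose (0.68 ± 0.09, adjusted p = 2.75e-07). So did ELK3, another partner gene of SRF (1.73 ± 0.29, adjusted p = 9.81e-06), and CRTC3, which encodes a coactivator of CREB (0.96 ± 0.15, adjusted p = 5.09e-06), both named after their values were seen. CREB1, which encodes CREB and was also named after its values were seen, fell (-0.18 ± 0.07, adjusted p = 0.0224). At 150 nM 0 of the 21 were called, by edgeR as by DESeq2 and limma-voom, although the unadjusted p of 1 was under 0.05.

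Among 13 tested genes for partners and co-repressors, 4 rose and 3 fell at 500 nM. CDKN1A, whose p21 protein binds GADD45 proteins, averaged 143 CPM at 500 nM and 18.5 CPM in DMSO (2.95 ± 0.07, adjusted p = 1.16e-22). CCNB1, the cyclin of the CDK1 complex that GADD45 proteins inhibit, averaged 127 CPM at 500 nM and 317 CPM in DMSO (-1.32 ± 0.05, adjusted p = 1.39e-18). MAP3K4, the kinase that GADD45 proteins activate, rose little (0.15 ± 0.06, adjusted p = 0.0305), a call lost without a filter (adjusted p = 0.0567) and without any DMSO library or 500 nM replicate 1 or 3 (0.0557 to 0.105). NAB1 is in this list too. At 150 nM CDKN1A was the 1 gene of the 13 called, beside 1.27% of all tested genes. Of 12 genes for factors that bind or degrade AU-rich mRNAs, the class to which early-response mRNAs belong, 3 rose and 4 fell. ELAVL1, which stabilizes such mRNAs, fell (-0.33 ± 0.05, adjusted p = 7e-06), as did TIAL1 (-0.40 ± 0.08) and the deadenylase scaffold gene CNOT1 (-0.20 ± 0.04, and -0.06 with adjusted p = 0.246 under total-count scaling). ZFP36L1, which promotes their decay and is also among the immediate-early genes above, rose (0.53 ± 0.10, adjusted p = 4.14e-05). At 150 nM 0 of the 12 were called by edgeR, DESeq2 or limma-voom, and the unadjusted p of 1 was under 0.05. In both lists the shares called at 500 nM were near the 52% of all tested genes.

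The genes whose level over the 9 libraries was most like that of 4 of the genes were found by Pearson correlation of log2 CPM among 9573 genes, as a description only, since the 9 libraries form 3 dose groups and share their depth. For EGR1, whose mean was lowest at 150 nM but not called against DMSO, they were SNHG7 (r = 0.9819), TXNRD2 (0.9818) and CIITA (0.9775). CIITA, the activator of MHC class II genes, averaged 50.5 CPM in DMSO, 45.5 CPM at 150 nM and 59.7 CPM at 500 nM. For NR4A1 they were SLC23A2 (0.9899), TJAP1 (0.9894) and BRPF3 (0.9891), and for IER2 they were KCTD12 (0.9927), PHF21B (0.9896) and SPTBN1 (0.9886). For GADD45A, whose levels overlapped in all conditions, the closest were TTF1 (0.9026), TOR1AIP1 (0.8862) and SMC3 (0.8794).

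**Figure D4:**
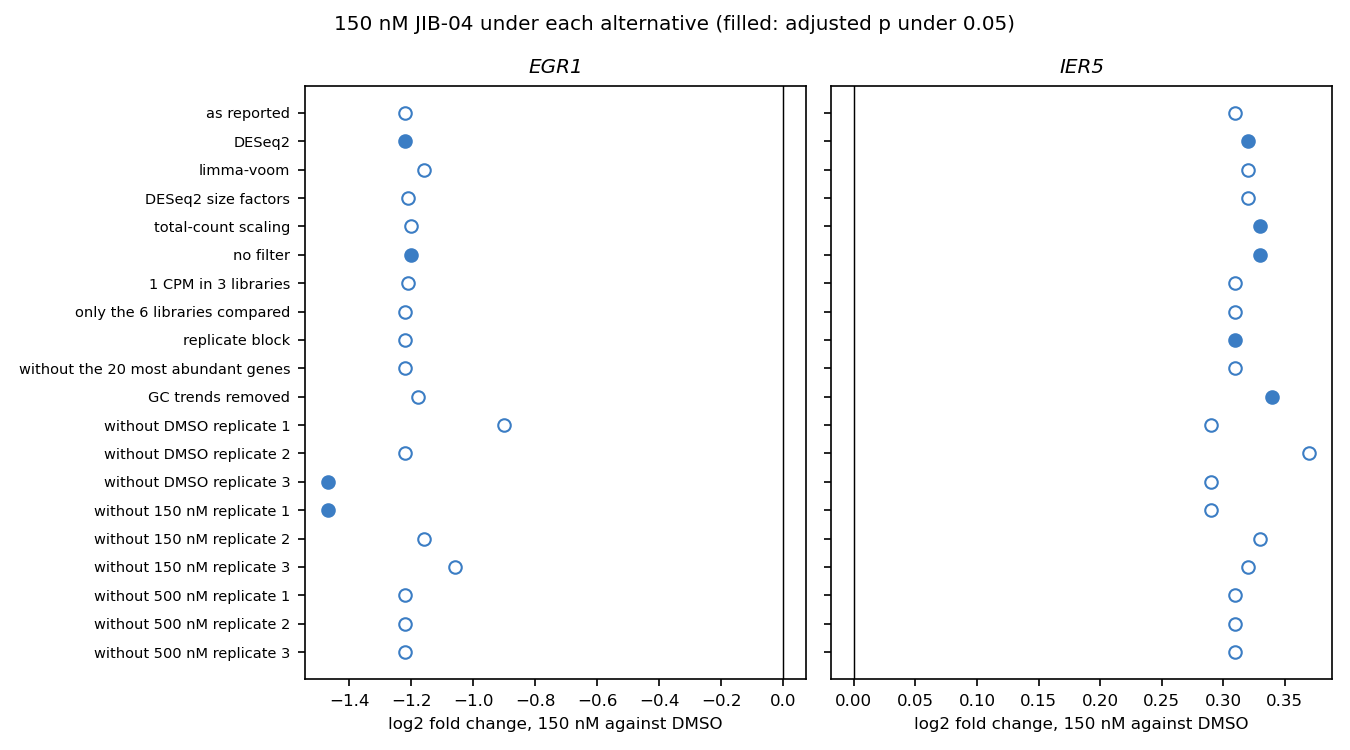
Log2 fold change of EGR1 and IER5 at 150 nM against DMSO, as reported and under each of 19 alternatives, on separate axes. Filled points have an adjusted p under 0.05. EGR1 lies between -1.47 and -0.90 and is filled for 4 alternatives, and IER5 lies between 0.29 and 0.37 and is filled for 5.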

How the data were processed

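RNA of 9 OCI-Ly1 libraries was measured in 3 groups of 3, taken with their replicate numbers from the sample titles. The deposited values are raw counts per gene symbol. The submitters' processing notes name featureCounts 1.4.6, Subread, Bowtie2 2.2.6 and TopHat2 2.0.14 and the builds hg19 and mm10, without a role. Of annotation and strand use, neither is given in the sources used here. Near-identical or overlapping genes can lose or share reads in such counting.

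Counts were analysed with edgeR 4.0.16 in R 4.3.3: filterByExpr (minimum count 10, minimum total 15), TMM scaling and a robust quasi-likelihood fit of all 9 libraries, with adjustment by Benjamini-Hochberg over all genes tested and a threshold of 0.05. CPM are these counts after TMM scaling. The SE comes from the unshrunk log2 fold change and the F statistic, and the fold changes are slightly shrunk by a prior count. The 95% intervals use the test's degrees of freedom. Alternatives used DESeq2 1.42.0, limma-voom (limma 3.58.1), other scalings, filters and library sets, and trends on GC content (lowess span 0.3, GENCODE 29 transcripts, known for 91.6% of tested genes). Per-kilobase levels use the longest such transcript.

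The genes and lists were chosen with earlier results of these data known. Named genes are the 10 genes, their relatives, from each further list the 3 genes of smallest adjusted p at 500 nM against DMSO in the direction of most called genes and 1 in the other direction, and 3 genes most alike by correlation at a mean of at least 5 CPM, without unnamed loci and small RNAs. A further gene that this rule names is not reported here. Replicate libraries were further apart than counting noise allows (chi-square per degree of freedom 6.35 to 15.3), so all were kept. Reads carry no molecular identifiers in these files, so limits for a count of 0 cover counting error only.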

Additional observations from a re-analysis of the deposited data

How the results depend on the processing

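At 500 nM against DMSO and against 150 nM, the counts of called genes stayed within 1.5 times of the reported 7 under every alternative. At 150 nM, 1 gene, IER5, was called higher by DESeq2, with total-count scaling, without a filter, with the replicate block and with GC trends removed. There 1 gene, EGR1, was called lower by DESeq2 and without a filter, and leaving out single libraries gave 0 to 1 called lower. Correlations of deviations from the group means, between libraries of the same replicate number, ran from -0.05 to 0.1 over 9 pairs. Of the 9 libraries, 5 correlated best with their own number. Whether the replicate numbers pair the libraries is not settled by these values. With the replicate number as a block, 308 genes were called at 150 nM in place of 192, and IER5 had a log2 fold change of 0.31 (adjusted p = 0.0294). The number of all genes called at 150 nM was 290 by DESeq2, 320 without a filter, 356 with GC trends removed, 101 with the 6 libraries compared alone, and 98 to 545 without single libraries. Estimates near 0 changed sign without single libraries. At 150 nM against DMSO they ran from -0.86 to 0.29 for EGR2, -0.08 to 0.20 for NR4A1, -0.01 to 0.20 for IER2, -0.19 to 0.03 for IER3, -0.08 to 0.12 for GADD45A and -0.08 to 0.65 for IER5L. At 500 nM against DMSO those of EGR2 ran from -0.20 to 0.95. None of the values of changed sign was called, and the cause was not tested. EGR2 and NR4A3 do not pass a filter of 1 CPM in 3 libraries. GADD45A was also called higher at 500 nM against 150 nM with total-count scaling (0.21, adjusted p = 0.0328). There the median log2 fold change of all genes was 0.132 with that scaling and 0.009 with TMM. Depth limits EGR2, EGR3 and NR4A3, which rest on at most 65 counts in any library.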

Other observations

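EGR3, EGR4 and NR4A2, each detected by few reads, had their highest count in different libraries. EGR4 had 0, 0 and 3 counts in DMSO replicates 1, 2 and 3, then 0, 2 and 3 at 150 nM, and 16, 2 and 2 at 500 nM. NR4A2 had 2, 2 and 1 counts in DMSO, 0, 3 and 2 at 150 nM, and 2, 16 and 2 at 500 nM. EGR3 had 4, 0 and 0 counts in DMSO, 0 in each 150 nM library, and 0, 0 and 5 at 500 nM. None of the 3 genes passed the filter on low counts, so no test was made.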
